A study of Mus musculus with 8 samples.

Results

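The loci of 6 genes that encode transcription factors of the somites and of the sclerotome were followed in chromatin accessibility data from mouse tailbuds: Pax1, Pax9, Uncx, Meox1, Tcf15 and Pax3. Around each gene a window of the mm9 genome build was set, and every counted open region or called peak that overlapped the window was taken as a member. Of 26620 counted regions, 31 lay in the 6 windows: 9 at Pax1, 7 at Pax9, 5 at Uncx, 0 at Meox1, 6 at Tcf15 and 4 at Pax3. Open chromatin was profiled with ATAC-seq, an assay that tags accessible DNA with a transposase, in tailbuds of embryos at embryonic day 9.5. The 4 wild-type (WT) libraries were compared with 4 from embryos homozygous for the Danforth's short tail mutation (Sd/Sd). Sd/+ animals were kept on the outbred CD-1 stock, and all 8 libraries carry this background. Tailbuds of 2 animals went into 1 library where input was short. The pooled libraries are not named in the labels, and each p-value rests on the spread within genotypes among the 8 libraries, whatever its source. The fit draws the variance of a region in part from all regions, so a p-value does not measure that region's own spread alone.

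Somites are blocks of paraxial mesoderm that form in sequence along the embryo, and each one divides into a ventral sclerotome, which makes vertebrae and ribs, and a dorsal dermomyotome, which makes muscle and dermis. The sclerotome forms under Hedgehog signals from the notochord and floor plate. Danforth's short tail is known for a shortened and malformed vertebral column with early loss of the notochord. Pax1 and Pax9 are paired-box factors of the sclerotome that act together in building the vertebral column. Uncx is a homeobox factor of the caudal part of the sclerotome. Tcf15, also called paraxis, is a basic helix-loop-helix factor needed for somites to become epithelial. Meox1 is a homeobox factor of the whole somite. Pax3 is a paired-box factor of the dermomyotome and the dorsal neural tube.

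Promoters of 3 of the 6 genes, Pax1, Pax9 and Uncx, were matched in a RefSeq table of the GRCm38.p6 build, and they are shown because their letters differ in base composition and in short motifs. Each runs from 250 bases before to 50 bases after an annotated start, on the plus strand, at chr2:147364744-147365043 for Pax1, chr12:56695221-56695520 for Pax9 and chr5:139543648-139543947 for Uncx. Capitals mark, on either strand, the CCAAT box (CCAAT), the GC box (GGGCGG), the homeodomain core (TAATTA) and the E box (CANNTG).
Pax1: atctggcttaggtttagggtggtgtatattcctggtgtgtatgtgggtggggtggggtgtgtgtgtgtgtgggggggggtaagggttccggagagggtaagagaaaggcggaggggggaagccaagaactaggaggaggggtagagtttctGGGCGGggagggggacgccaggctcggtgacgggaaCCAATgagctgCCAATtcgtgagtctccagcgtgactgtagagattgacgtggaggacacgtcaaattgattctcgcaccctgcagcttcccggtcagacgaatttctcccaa
Pax9: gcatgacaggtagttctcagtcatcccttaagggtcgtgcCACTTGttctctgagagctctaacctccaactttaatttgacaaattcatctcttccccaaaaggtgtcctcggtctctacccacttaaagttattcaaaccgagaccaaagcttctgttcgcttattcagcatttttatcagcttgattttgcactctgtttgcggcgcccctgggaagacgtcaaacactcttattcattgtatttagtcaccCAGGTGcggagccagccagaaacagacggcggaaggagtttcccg
Uncx: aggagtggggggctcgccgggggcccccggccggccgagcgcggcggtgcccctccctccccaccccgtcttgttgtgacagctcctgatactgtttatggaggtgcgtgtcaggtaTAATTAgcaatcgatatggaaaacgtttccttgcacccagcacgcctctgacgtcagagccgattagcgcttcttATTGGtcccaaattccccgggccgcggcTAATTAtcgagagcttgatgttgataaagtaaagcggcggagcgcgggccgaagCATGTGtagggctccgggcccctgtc

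The Pax1 promoter held 13 CpG and 57.3% G and C, the Pax9 promoter 11 CpG and 47%, and the Uncx promoter 26 CpG and 60.7%. The median over 32851 promoters of the table was 7 CpG and 52.7%. CCAAT occurred in the Pax1 window at -63 and -52 from the annotated start and in the Uncx window at -58, and 37.4% of all promoters hold it. GGGCGG, the GC box, occurred in the Pax1 window at -99 and is held by 35.7% of all promoters. TAATTA, the core recognised by many homeodomains, was in the Uncx window at -133 and -30 and is held by 5.29% of promoters. CANNTG, the E box bound by basic helix-loop-helix factors, was in the Pax9 and Uncx windows, and 72.3% of all promoters hold it. None of the 3 windows held the TATA box letters TATAAA (13.6% of promoters), or the GLI core GGGTGGTC (0.807%), which says only that these letters are not in these windows. These matches describe letters only. The deposited regions are on mm9 and the promoters on GRCm38, so no region was assigned to a promoter.

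The 8 libraries held between 2873918 and 4180434 counts over the 26620 regions, and the 31 member regions received 12 to 261 counts per library, with a median of 73 against 87 over all regions. Levels are given as CPM, the count of a region per 1000000 counts of its library over all regions, and they carry both counting error and library spread. As a check of the labels, the region of smallest p in the whole table lay near the known Danforth insertion, at chr2:19352448-19354135, where the WT level was 30.0 ± 4.46 CPM and the Sd/Sd level 51.3 ± 2.11 (mean ± SD of 4 libraries, edgeR adjusted p = 0.000487). Windows around 7 marker genes, placed from background knowledge of mm9, all held counted regions. The tailbud and presomitic mesoderm windows of T (1 region), Tbx6 (5) and Cdx2 (6) summed to 12.4 to 28.8, 127 to 160 and 132 to 182 CPM over the 8 libraries. The T region had a peak in 1 WT and 3 Sd/Sd libraries. Windows of Sox2 (neural, 3 regions), Tal1 (blood, 6) and Kdr (endothelium, 1) ranged over 73.2 to 88.7, 219 to 262 and 31.3 to 43.4 CPM. That of Foxa2 (endoderm, notochord and floor plate, 3 regions), which neighbours Pax1, averaged 94.0 ± 3.93 CPM in WT and 103 ± 8.69 in Sd/Sd (SD over 4 libraries). The sums rest on unlike numbers of regions, so they do not compare between genes. The WT and Sd/Sd sums overlapped at all 7. Among single marker regions, chr5:148131303-148131522 at Cdx2 and chr4:114757999-114758524 at Tal1 had an unadjusted edgeR p under 0.05. Their log2 fold changes (Sd/Sd over WT) were 0.73 and -0.44, with overlapping libraries and an edgeR adjusted p of 0.802 at each. Of all regions, 6.06% had an unadjusted p under 0.05. The labels place the cut at the last somite but do not say how much formed somite the tailbuds held, and in such bulk tissue fewer cells of a type and lower accessibility per cell cannot be told apart.

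Accessibility at the somite and sclerotome loci did not differ detectably between Sd/Sd and WT tailbuds. None of the 31 regions passed an adjusted p of 0.05 in edgeR's quasi-likelihood test, against 5 of all 26620 (0.0188%), and the smallest adjusted p among the 31 was 0.87. None reached an unadjusted p under 0.05, where 6.06% of all regions did, and none had WT and Sd/Sd libraries that did not overlap, where 3.2% of all regions did. DESeq2 and limma with voom also called 0 of the 31. Fitted log2 fold changes (Sd/Sd over WT) ran from -0.21 to 0.49, with 17 above and 14 below 0. Their median was 0.0486, beside 0.0006 over all regions, and its sign was not stable: it was -0.0239 over the 23 regions with a mean count of at least 50, -0.0286 when Sd/Sd replicate 3 was left out and -0.0031 when WT replicate 4 was. Fold changes above 1.5 in either direction were outside the 95% interval at 24 of the 31 regions (77.4%, against 73.8% of all regions). Changes above 2-fold were outside it at 30 of the 31 (96.8%, against 98.1% of all regions). The exception was the narrow region chr2:151979126-151979456 in the Tcf15 window, whose interval reached 1.07 on the log2 scale.

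**Figure D1:**
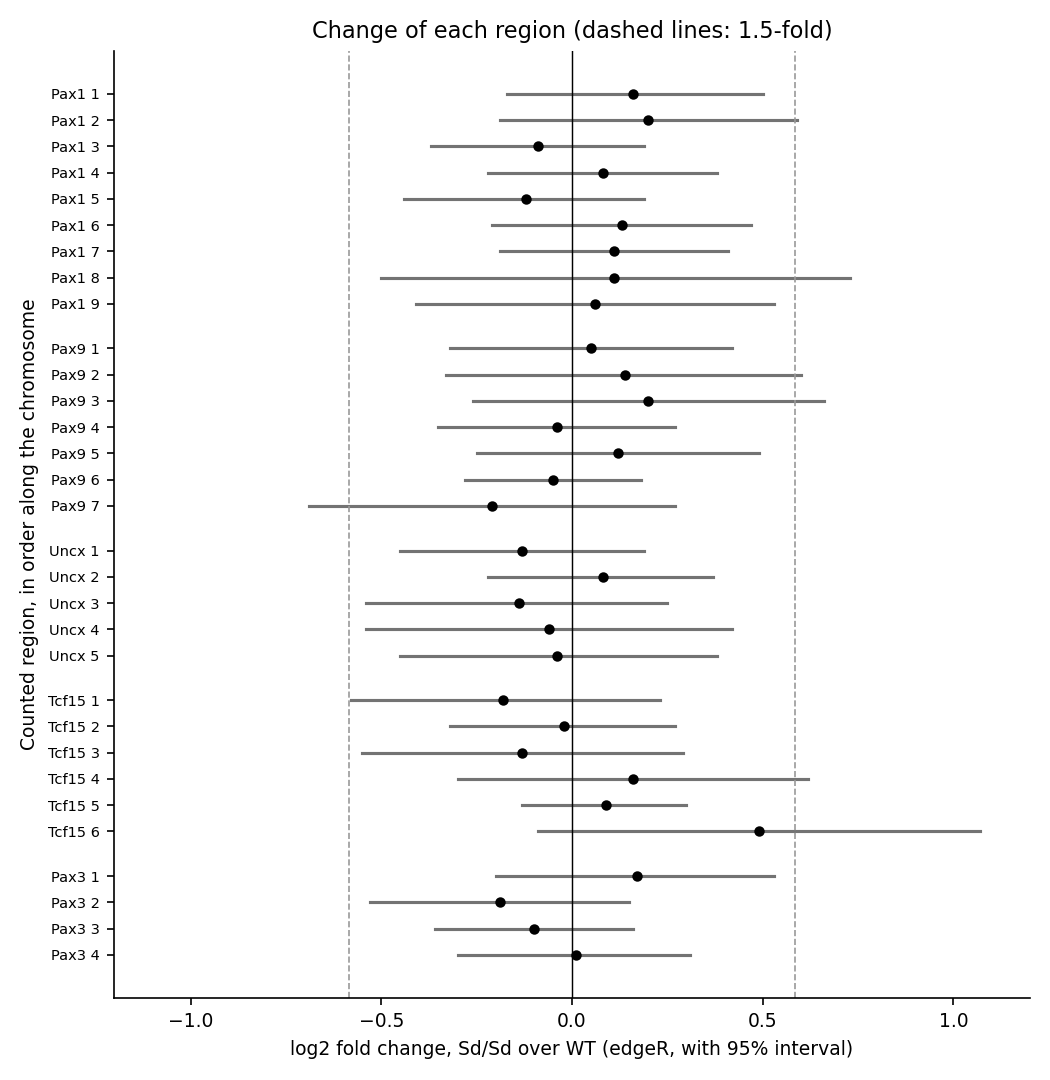
Fitted log2 fold change of each of the 31 counted regions (Sd/Sd over WT, points) with its 95% interval (lines), numbered in order along the chromosome within each locus, with dashed lines at a 1.5-fold change. Every interval covers 0, and the interval of the last Tcf15 region reaches 1.07.

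The Meox1 window, 130 kb wide, held 0 counted regions, and 0 peaks were called in it in any of the 8 libraries. When each of the 19 autosomes was cut into tiles of 130 kb from its first to its last counted region, 33.0% of 18567 tiles held no counted region. No level can be given for Meox1 from these tables. The other windows differed in how densely they were filled. The Tcf15 window held 60 regions per Mb, that of Pax9 35, that of Pax1 25.7, that of Uncx 22.7 and that of Pax3 10. Each of the 6 genes also has neighbours, whose distances to the windows were not measured. In the gene order of GRCm38 these are Nkx2-2 and Foxa2 on either side of Pax1, and Nkx2-9 and Slc25a21 beside Pax9. Zfand2a and Micall2 lie beside Uncx, Etv4 and Sost beside Meox1, Srxn1 and Csnk2a1 beside Tcf15, and Epha4 and Gm2102 beside Pax3. A region is therefore named by its window and was not assigned to a gene.

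**Figure D2:**
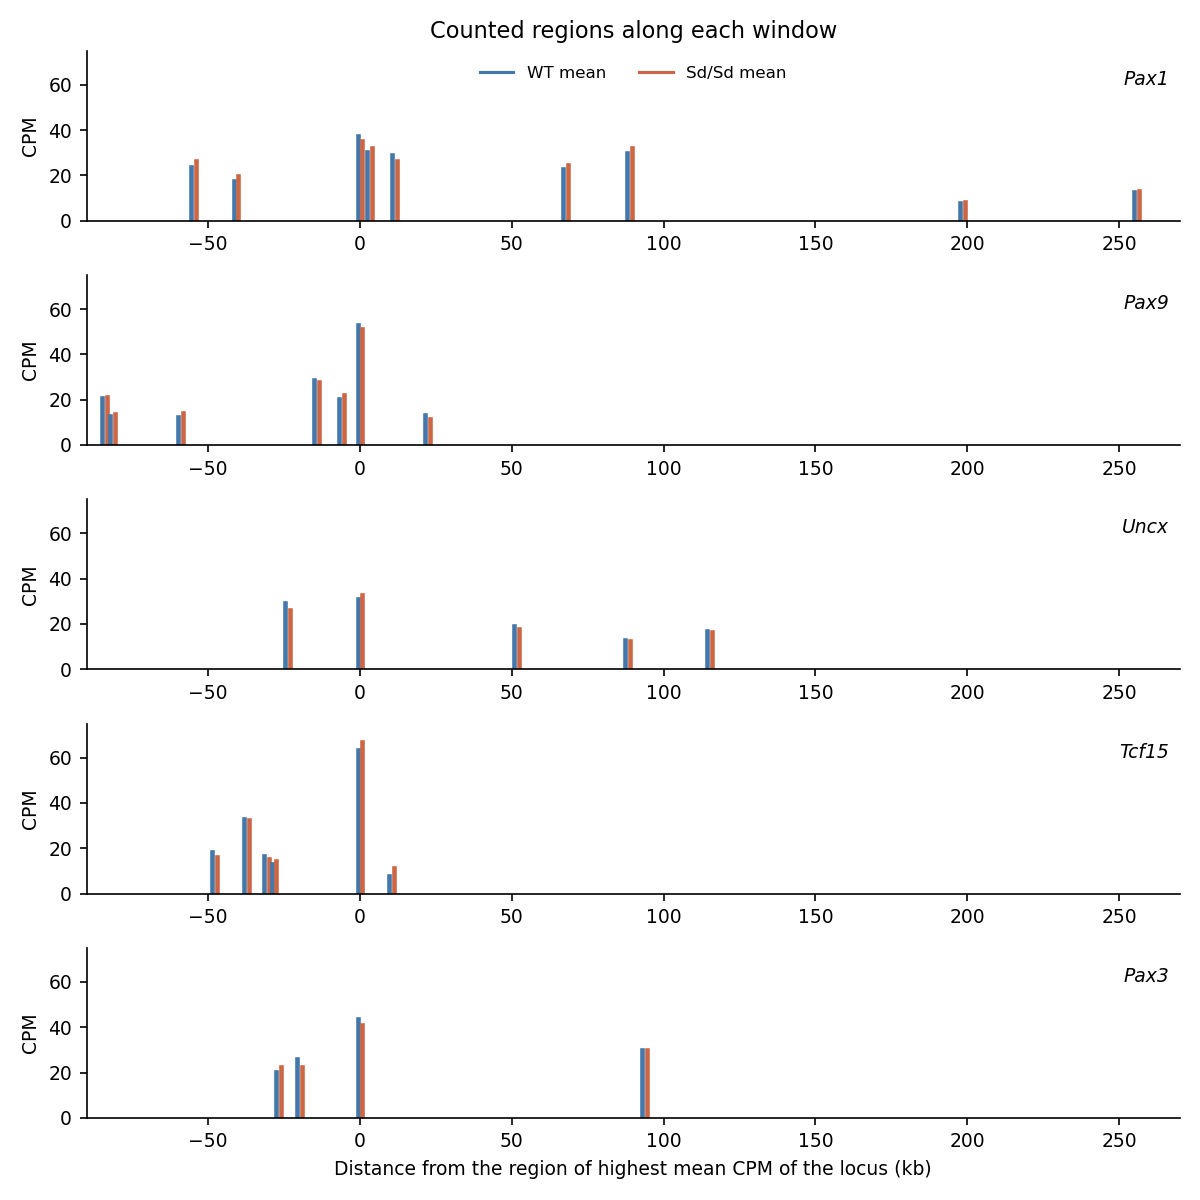
Mean CPM of each counted region in WT (blue) and Sd/Sd (orange) by its distance in kb from the region of highest mean CPM in the same window, 1 panel per locus, with paired bars drawn side by side. Tcf15 and Pax9 have 1 region that stands above the rest, and the 9 Pax1 regions are spread from -54.8 to 256 kb with no mean above 37.5 CPM.

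At Pax1, the sclerotome factor mutated in undulated mice, the region of highest level was chr2:147187684-147188450, and it carried 16.9% of the CPM of the locus. Its levels in the order of replicates 1 to 4 were 40.0, 42.7, 30.6 and 36.6 CPM for WT, and for Sd/Sd 29.2, 38.8, 36.2 and 36.4 CPM. The groups overlapped, with 1 low library in each genotype, and the log2 fold change was -0.09 (95% interval -0.37 to 0.19, with SE 0.14). A second region lay 3.09 kb further on and another 11.4 kb further on, so that 3 of the 9 regions formed a cluster. The last of these, chr2:147199079-147199865, was the Pax1 region of smallest p among those below WT, with 31.6, 28.5, 31.0 and 24.9 CPM in WT and 28.6, 27.2, 22.9 and 27.0 in Sd/Sd (log2 fold change -0.12, 95% interval -0.44 to 0.19). Among those above WT it was chr2:147146810-147147667, 40.8 kb on the other side of the strongest region, with 14.9 to 18.5 CPM in WT and 16.3 to 23.2 in Sd/Sd (log2 fold change 0.20, SE 0.20, 95% interval -0.19 to 0.59). Both pairs of groups overlapped. Of the 9 Pax1 regions, 7 had a fitted change above 0 and 2 below, with a median of 0.11, and 13347 of all 26620 regions were above 0. The 9 regions share the same libraries, so their directions are not independent, and no test was made of this count. The region 198 kb away, at 7.71 CPM in WT and 8.45 in Sd/Sd, was at percentile 0.729 of all regions by level.

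Pax9, the close relative of Pax1 in the sclerotome, had a stronger leading region, and 0 of its 7 regions were called. Its region chr12:57796406-57797746 held 32.3% of the CPM of the locus and lay at percentile 80.1 of all regions. It had 56.8, 49.0, 51.5 and 55.1 CPM in WT and 52.5, 51.5, 51.3 and 49.3 in Sd/Sd, a log2 fold change of -0.05 (SE 0.12, 95% interval -0.28 to 0.18). The Sd/Sd libraries all lay within the WT range. At chr12:57737844-57738340, 59 kb before it, the levels were 12.5, 12.3, 13.6 and 11.4 CPM in WT and 14.7, 11.3, 16.3 and 14.4 in Sd/Sd (log2 fold change 0.20, SE 0.23, 95% interval -0.26 to 0.66). Here 3 of 4 Sd/Sd libraries lay above all WT libraries and the fourth lay below them all. At chr12:57819049-57819542, 22.2 kb beyond the strongest region, the levels were 12.2, 12.6, 11.8 and 17.0 CPM in WT and 11.4, 6.15, 16.0 and 12.4 in Sd/Sd (log2 fold change -0.21, SE 0.25, 95% interval -0.69 to 0.27). At this low level WT replicate 4 stood above the rest of WT, and Sd/Sd was spread more widely. Leaving out Sd/Sd replicate 2 gave a change of -0.02, leaving out WT replicate 4 gave -0.07, and leaving out Sd/Sd replicate 3 gave -0.40.

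At Uncx, 2 regions 23.9 kb apart held the highest levels of the window. The highest peak in each, at 5.98- and 5.08-fold, exceeded every peak elsewhere in the 6 windows, but the lowest peak of the second was at 2.93. In the region chr5:139936194-139936818 the authors' peak caller gave folds of 4.07 to 5.98 over its background, with a peak in all 8 libraries. Its levels were 23.5, 24.8, 42 and 26.1 CPM in WT and 28.1, 28.8, 22.6 and 25.8 in Sd/Sd. WT replicate 3 alone stood high, and the log2 fold change of -0.13 (SE 0.16, 95% interval -0.45 to 0.19) became 0.09 without it. The neighbouring region chr5:139959934-139960931 had 32, 33.1, 25.4 and 33.1 CPM in WT and 35.8, 35.6, 33.8 and 25.4 in Sd/Sd (log2 fold change 0.08, SE 0.15, 95% interval -0.22 to 0.37). There the same WT library was the lowest of its group, with Sd/Sd replicate 4 as low, and without WT replicate 3 the change was -0.0059. The other 3 Uncx regions, at 12.5 to 19.3 CPM in either genotype, had changes from -0.14 to -0.04.

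Tcf15, the paraxis gene of somite epithelia, had the region of highest level among all 31. The region chr2:151967813-151969893, 2081 bp wide, carried 42% of the CPM of its locus and lay at percentile 86 of all regions. It had 64.6, 65.2, 61.9 and 61.2 CPM in WT and 69.2, 71.8, 64.2 and 62.4 in Sd/Sd. The Sd/Sd values were on average higher but the groups overlapped, with a log2 fold change of 0.09 (SE 0.11, 95% interval -0.13 to 0.30). The smallest unadjusted p of all 31 regions was at chr2:151979126-151979456, 10.4 kb further on, where the fitted log2 fold change was 0.49 (SE 0.29, edgeR adjusted p = 0.87). Its levels were 7.24, 5.63, 9.05 and 9.08 CPM in WT and 6.39, 15.2, 15.7 and 6.94 in Sd/Sd, so Sd/Sd replicates 2 and 3 stood above WT and replicates 1 and 4 lay within its range. Leaving out either high Sd/Sd library lowered the change to 0.27 or 0.30, and leaving out either of the other Sd/Sd libraries raised it to 0.67 or 0.68. This region had a called peak in 2 Sd/Sd libraries and in 0 from WT. If the counted regions were chosen from such calls, it entered through Sd/Sd, and its rise is not independent of that choice. At the other end of the window, chr2:151920746-151921269 had 14.5, 21.2, 22.3 and 16.1 CPM in WT and 18.3, 16.5, 16.0 and 14.1 in Sd/Sd (log2 fold change -0.18, SE 0.21, 95% interval -0.58 to 0.23), again with overlap. Tcf15 and Pax1 are on chromosome 2 with the mutation, on which 6.7% of 2432 regions had an unadjusted p under 0.05, and 0 of the 15 regions at these genes did.

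Pax3, the dermomyotome factor, had 4 counted regions in the widest window. The highest, chr1:78212519-78214322, had 42.3, 33.4, 51.5 and 48.0 CPM in WT and 42, 45.6, 35.6 and 39.9 in Sd/Sd. The Sd/Sd values fell inside the WT range, and the log2 fold change was -0.10 (SE 0.13, 95% interval -0.36 to 0.16). At chr1:78193262-78193910, 19.8 kb before it, the levels were 24.9, 23.8, 27.8 and 26.6 CPM in WT and 23.9, 16.2, 28.7 and 21.1 in Sd/Sd (log2 fold change -0.19, SE 0.17, 95% interval -0.53 to 0.15). The highest and the lowest of these 8 libraries were both Sd/Sd. At chr1:78186109-78187045 WT libraries ranged from 16.2 to 24.0 CPM and Sd/Sd libraries from 21.0 to 25.0 (log2 fold change 0.17, SE 0.18, 95% interval -0.20 to 0.53). Far from these, 93.8 kb beyond the strongest one, a region had 30.1 CPM in both genotypes (SD 6.10 in WT and 2.06 in Sd/Sd).

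**Figure D3:**
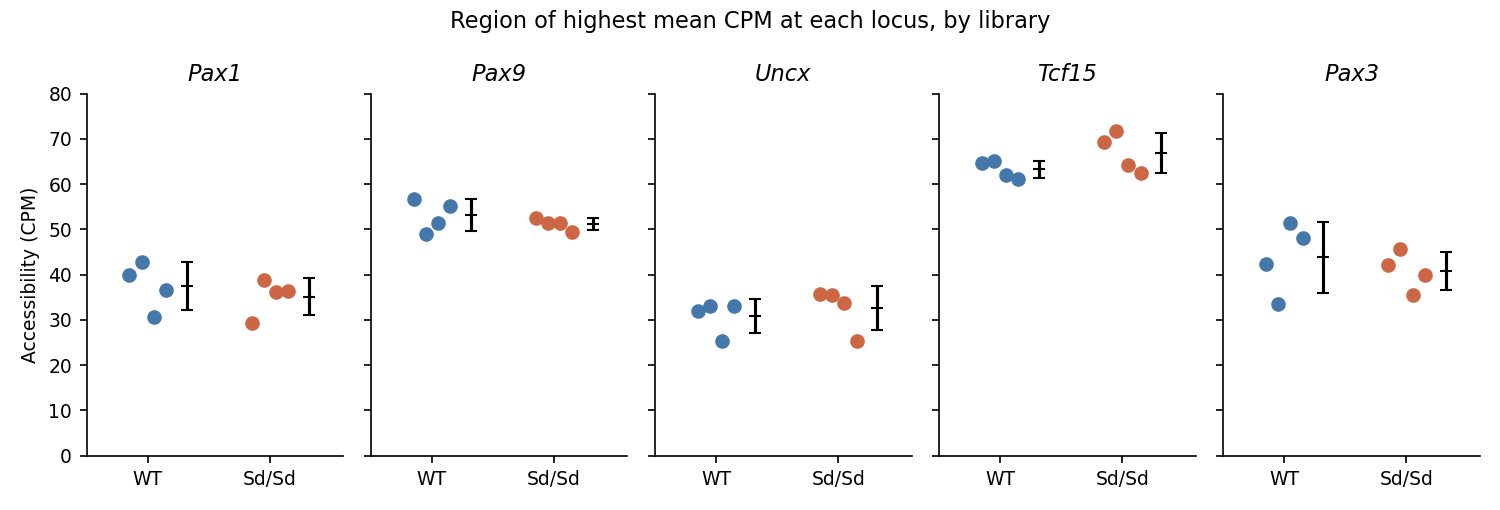
CPM of the region of highest mean level in each of the 5 loci with counted regions, 1 point per library (4 WT in blue, 4 Sd/Sd in orange), with mean and SD as black bars. The genotypes overlap in every panel, and Tcf15 stands highest at 61.2 to 71.8 CPM.

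No single library led these loci. Of the 31 regions, each library was the highest at 2 to 6 and the lowest at 2 to 7. WT replicate 2 and Sd/Sd replicate 2 were each lowest at 7, and WT replicate 3 and Sd/Sd replicate 3 were each highest at 6. The spread between replicates was close to that of the whole table, with a median coefficient of variation of 14.2% against 14.4%. The regions were somewhat narrower and weaker than the whole set, with a median width of 767 bp against 874 bp and a median level of 21.4 CPM against 25.8, and 12 of the 31 lay above the median level.

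Peak calls were deposited for each library on its own. A peak was called in all 8 libraries at 7 of the 31 regions (22.6%), against 41.3% of all counted regions. These 7 were 2 at Pax1, 1 at Pax9, 2 at Uncx and 2 at Tcf15, with none at Pax3. In WT, the 8 regions with a peak in 4 of 4 libraries had 22.7 to 63.2 CPM, and the 4 regions with a peak in no WT library had 7.75 to 18.5, while the weakest Pax1 region, at 7.71 CPM in WT, had a peak in 3. At 15 regions (48.4%) more Sd/Sd than WT libraries had a peak, at 4 (12.9%) fewer, and at 12 (38.7%) the numbers were equal. Over all 26620 regions these shares were 29.3%, 13.1% and 57.6%, so calls leaned towards Sd/Sd in the whole table too, and whether the members differ from it was not tested. The Sd/Sd libraries had 21306 to 30387 peaks in all and the WT libraries 18682 to 24664, and the part of this difference in the calls at these loci was not tested. Per 1000 peaks of its own list, a WT library had 0.689 to 1.02 in the 6 windows and an Sd/Sd library 0.823 to 1.16.

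At 1 of the 31 regions the calls separated the genotypes fully while the counts did not. The Pax9 region chr12:57737844-57738340 was called in each of the 4 Sd/Sd libraries and in 0 from WT, at folds of 2.83 to 3.50 over the caller's background. Its counts gave the 1.15-fold difference described above, with overlapping libraries and an edgeR adjusted p of 0.954. Over the whole table this pattern occurred at 80 regions (0.301%). The opposite, a peak in 4 WT and 0 Sd/Sd libraries, occurred at 0 of the 31 and at 8 of all regions (0.0301%). Of the 31, 4 had a peak in no WT library and 0 in no Sd/Sd library. The shares of such regions over the whole table were not computed. Calls leaned towards Sd/Sd there too (29.3% of regions against 13.1%), so the 4 and 0 are not read as a trait of these loci. If the counted regions were chosen from such calls, the Pax9 region entered through Sd/Sd, and its separation is not independent of that choice. Another 12 intervals of the windows had a peak but no counted region, 7 at Pax1, 3 at Uncx and 1 each at Pax9 and Tcf15, and each of them was called in a single library, 5 in WT and 7 in Sd/Sd.

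**Figure D4:**
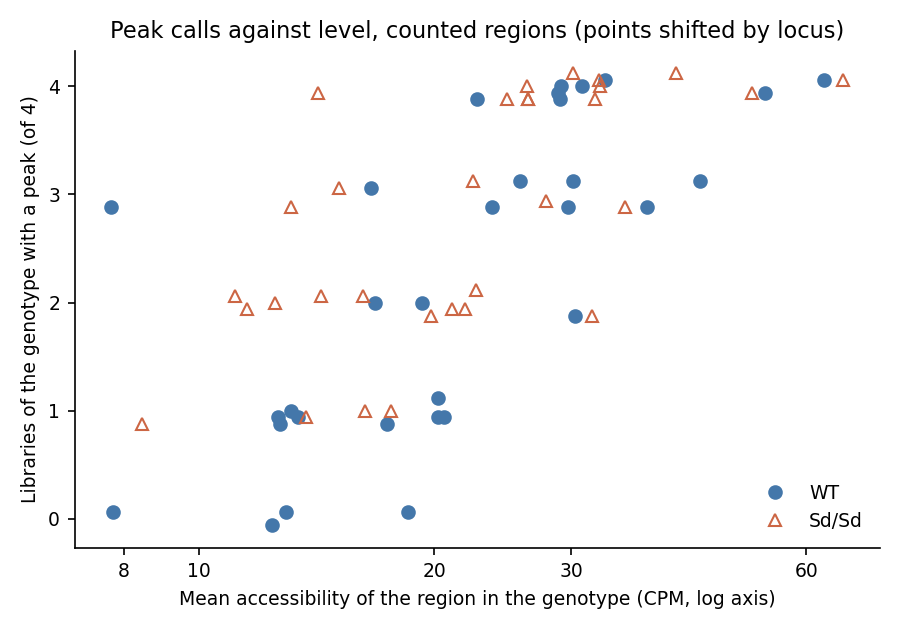
Number of libraries of a genotype (of 4) with a called peak at each of the 31 regions against the mean CPM of the region in that genotype on a log axis, with WT as filled circles and Sd/Sd as open triangles, shifted slightly by locus. Regions with 4 calls lie mostly to the right of those with 0 or 1, and the open triangle at 14.2 CPM in the top row is the Pax9 region called in Sd/Sd libraries alone.

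Summed over the regions of a locus, the genotypes overlapped at each of the 5 loci. Pax1 summed to 229, 205, 195 and 213 CPM in WT and 208, 215, 220 and 229 in Sd/Sd, a ratio of 1.04. For Pax9 the WT sum was 161 ± 7.56 CPM and the Sd/Sd sum 161 ± 17.2 (mean ± SD of 4 libraries), with a ratio of 1.0 and Sd/Sd replicate 2 low at 136. Uncx summed to 109 ± 9.96 and 105 ± 12.0, a ratio of 0.965, with Sd/Sd replicate 4 low at 87.3. The libraries that stood low differed between these loci. The Uncx ratio turned above 1 without WT replicate 3 or Sd/Sd replicate 4, with log2 ratios of 0.0127 and 0.0281 in place of -0.052. Tcf15 summed to 152 ± 8.68 and 156 ± 9.90 (ratio 1.03), and Pax3 to 120 ± 11.6 and 116 ± 3.18 (ratio 0.966, with a log2 ratio of -0.05 that became 0.0134 without WT replicate 3).

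Per kb of counted region the order of levels was Pax1 at 32.1 ± 1.77, Tcf15 at 31.6 ± 1.82, Pax9 at 29.5 ± 2.25, Uncx at 27.6 ± 2.69 and Pax3 at 24.5 ± 1.70 CPM per kb (mean ± SD over 8 libraries). Neighbours in this order overlapped over the libraries, and the ranges of Pax1 (29.2 to 34.4) and Pax3 (22.5 to 28.2) did not. By the root mean square difference of centred log2 sums over the 8 libraries, Pax1 and Pax9 were most like Tbx18 (0.057 and 0.076), Uncx and Tcf15 most like each other (0.084), and Pax3 most like Tcf15 (0.089). These loci share libraries and depth, and the sums differ in how many counts they rest on. Foxc2, with the lowest sums (mean 26.0 CPM in WT), was least like each of these loci. Likeness was not separated from counting noise.

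At other genes of somite patterning no change was detected either, and most of these loci had higher levels. Windows around Sox9 (cartilage), Nkx3-2 (sclerotome), Foxc1 and Foxc2 (paraxial mesoderm), Twist1 (mesenchyme), Tbx18 (rostral somite), Meox2 (somite), Pax7 (dermomyotome) and Myf5 (muscle) were placed from background knowledge of mm9 and held 21 counted regions, with 0 in the Pax7 window of 200 kb. None of the 21 passed the adjusted threshold or an unadjusted p of 0.05, and their median log2 fold change was 0.0117, with 11 above and 10 below 0. Meox2, the relative of Meox1, had 1 region, chr12:37834323-37836330, at 100 ± 10.8 CPM in WT and 109 ± 10.2 in Sd/Sd (log2 fold change 0.12, SE 0.092). At Nkx3-2, which acts with Pax1 and Pax9 in the sclerotome, the region chr5:42154650-42156058 had 106 ± 5.01 CPM in WT and 106 ± 4.60 in Sd/Sd (log2 fold change 0.01, SE 0.091). The strongest was a Tbx18 region, chr9:87624220-87626421, with 149 ± 9.55 and 146 ± 9.55 CPM. Per kb the 8 loci with regions ran from 23.1 CPM at Foxc2 to 61.6 at Tbx18, and 6 of them had a higher mean than each of the 5 loci above, with Foxc1 at 27.0 and Foxc2 as the exceptions. The windows were drawn differently, at 110 to 200 kb here and 100 to 400 kb for the member loci. Median region width was 1161 bp here and 767 bp at the member loci. The part of these differences in the levels was not tested.

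**Figure D5:**
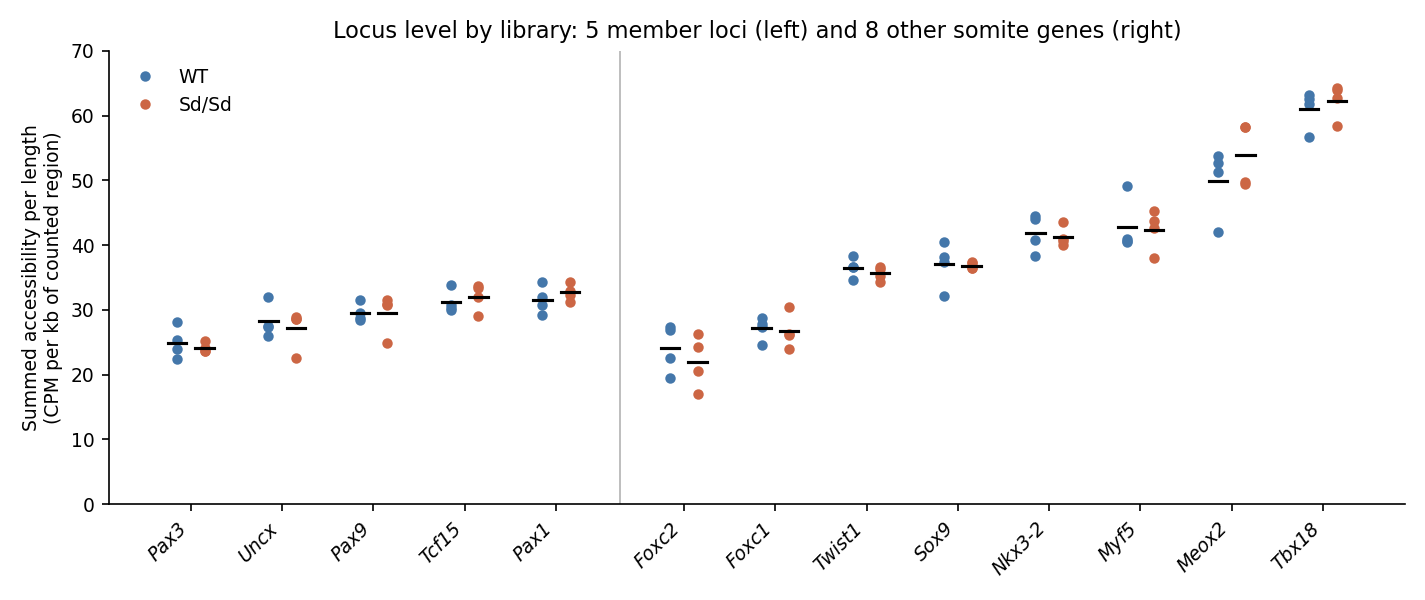
CPM summed over the counted regions of a locus per kb of those regions, 1 point per library (WT blue, Sd/Sd orange, short bars for group means), for the 5 member loci on the left and 8 other somite genes on the right, each in order of level. The genotypes overlap at all 13 loci, and Tbx18 stands highest at a mean of 61.6 CPM per kb.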

How the data were processed

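Per the submitters' processing notes, reads were placed on mm9, and the tools named include MACS2 2.1.1.20160309, BWA 0.7.15-r1140 and bedtools 2.26.0. No source states settings or a correction for the Tn5 insertion offset. For every library the authors deposited raw counts over 1 shared set of 26620 autosomal regions, plus its own broad peaks, each with a score, a fold enrichment (ratio) and −log10 p and q values. No source says what 1 count stands for (fragments or reads).

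Counts of all regions were fitted with edgeR 4.0.16 (quasi-likelihood F test, robust, TMM factors 0.9887 to 1.006, two-sided, genotype as the only term) in R 4.3.3, with Benjamini-Hochberg adjustment over all 26620 regions. filterByExpr kept 26620. Intervals are 95% intervals of the fitted change. CPM are counts over the plain library total. Peaks were matched at an overlap of 1 bp or more. The procedure was tested on simulated counts. No libraries of a genotype agreed within counting noise (chi-square per degree of freedom 2.18 to 3.25), so all 8 were kept.

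Regions were described in full by a rule: in each window the highest mean CPM, and the smallest p above and below WT. Alternatives were DESeq2 1.42.0, limma 3.58.1 with voom, other scalings, a count filter, a replicate block, stricter peaks and leaving out each library. The members and lists were chosen with earlier results of these data known. Windows of the other somite genes and of the markers could not be checked against an mm9 annotation, and the peak scores were not used.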

Additional observations from a re-analysis of the deposited data

Results flagged for a closer look

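A library standing apart from the remaining 3 of its genotype was found in 5 of 38 sets of 4 values, where chance gives about 1 in 20 for a single set. The sets share libraries, and the sums include the regions, so the 5 cannot be read as an excess over chance. At the Pax9 region chr12:57819049-57819542, the level of WT replicate 4 was 17.0 CPM, with 11.8 to 12.6 in the rest of WT. At the Uncx region chr5:139936194-139936818, WT replicate 3 had 42 CPM against 23.5 to 26.1. At the next Uncx region, chr5:139959934-139960931, the same library was low, at 25.4 CPM against 32 to 33.1. Summed over the Pax9 regions, Sd/Sd replicate 2 stood low at 136 CPM, with 168 to 172 elsewhere in its group. Summed over the Uncx regions, Sd/Sd replicate 4 had 87.3 CPM against 111 to 112. The cause of these deviations was not tested.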

How the results depend on the processing

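No member region passed the adjusted threshold in any alternative run (RLE or library-total scaling, a mean count of at least 50, DESeq2, limma voom, edgeR without robust variance, a block for replicate number, and each library left out in turn), and the smallest adjusted p of any member was 0.578, without Sd/Sd replicate 1. With 1 library left out, 0 to 1 region reached an unadjusted p under 0.05 (Tcf15 chr2:151979126-151979456, without Sd/Sd replicate 1 or 4) and 0 to 1 of the other somite genes' regions (Myf5 chr10:106925479-106925969, without WT replicate 3). The median log2 fold change over the members was -0.0239 at a mean count of at least 50, which kept 23 of the 31, and -0.0286 to 0.0689 with 1 library left out. Of 14 regions described in full, 12 kept their sign in every alternative that could be computed. The count filter gave no value for 3 of these 12, which it removes (Pax9 chr12:57737844-57738340 and chr12:57819049-57819542, Tcf15 chr2:151979126-151979456). The exceptions, both at Uncx without WT replicate 3, ran from -0.22 to 0.09 and from -0.0059 to 0.18. Calls among all 26620 regions numbered 5, and 3 with DESeq2, 10 with voom, 15 without robust variance, 23 with the replicate block and 2 to 19 with 1 library left out; the cause was not tested. Replicate numbers are shared by the genotypes but not stated to pair samples. Same-numbered libraries deviated together at correlations of -0.001 to 0.091, and the block called 0 members. Member regions with a peak in every library numbered 0 with peaks of q at most 1e-05, 0 where a peak had to cover at least 50% of the region, and 7 to 9 with 1 library left out. Shares over all counted regions were not computed under the 2 stricter rules, so these 0 counts do not set the members apart. The summed log2 ratios all kept their sign with TMM-scaled library totals. Leaving out 1 of 4 libraries cannot shift a group mean beyond the spread of its libraries, so small shifts there carry no weight. With 1 library left out, 3 of the 5 ratios changed sign: Uncx (-0.0895 to 0.0281), Pax3 (-0.0957 to 0.0134) and Pax9 (-0.032 to 0.0757). At 12 to 261 counts per region the 95% interval reached a median of 1.29-fold to each side, which corresponds to an unadjusted p; the adjusted threshold needs a larger change, and the fitted 1.41-fold change at Tcf15 was not called.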
